A study of Mus with 4 samples.

Results

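A gene set named for the tumour suppressor p53, its regulators and direct targets was examined in PPS-ICBR cells given vorinostat or its solvent. The set lists 10 genes: Trp53, Mdm2, Mdm4, Trp53inp1, Trp53inp2, Zmat3, Phlda3, Aen, Perp and Btg2. Its members were taken as every probe set whose only annotated symbol is one of these names, which gave 20 probe sets of 9 genes, out of 34945 probe sets with 1 symbol for 18193 genes. Trp53, which encodes p53 itself, was not analysed here.

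PPS-ICBR is labelled as a prostate cancer cell line of C57Bl6 mice. The tested cultures received 5 µM vorinostat, a hydroxamic acid that inhibits histone deacetylases, dissolved in DMSO. The comparison cultures received only the solvent, 5 µL of DMSO per 10 mL medium. Both were plated at 60% confluency and treated overnight, and each group has 2 arrays. The labels do not give the p53 status of the line. They also leave unsaid whether replicate arrays stem from separate cultures, so the p-values cover only the spread among these samples, which may be technical.

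p53 is a transcription factor that is held at low activity in unstressed cells and released by DNA damage and other stress. MDM2 marks p53 for destruction and is itself a p53 target, which closes a feedback loop, while its relative MDM4 binds p53 and blocks its activity. Released p53 switches on genes that halt division, repair DNA or lead to cell death, and many of these genes also answer to other transcription factors.

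Values are deposited log2 expression values, 1 per probe set and array. A change is the vorinostat mean less the DMSO mean on the log2 scale, given with its standard error (SE), and n = 2 arrays per group throughout. The test was limma's moderated test, with p-values adjusted by Benjamini-Hochberg over 45037 probe sets and a threshold of 0.05. A probe set counted as near background where it lay no more than 1 log2 unit above the brightest control probe set of an RNA absent from the spike-in mix.

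The response of the set was divided. At the probe set with the highest mean signal of each gene, Trp53inp1, Btg2, Trp53inp2 and Perp rose, Aen fell, and Mdm2, Mdm4, Zmat3 and Phlda3 did not pass the threshold. So 4 of 9 genes rose, against 20.9% of all genes, and 1 of 9 fell, against 18.9% of all genes, which makes 5 of 9 that passed in either direction, against 39.9%. Of the 9 genes, 4 passed with a change of at least 2-fold, against 11.9% of all genes. Perp was the 1 of the 5 that passed with a smaller change. Of the 20 probe sets, 6 passed as higher and 4 as lower, where 16.5% and 15.7% of all probe sets did, or 32.2% in either direction. The median change over the 9 genes was 0.30, against 0.03 over all genes. The vorinostat arrays did not overlap the DMSO arrays in 9 of 9 genes, against 68.9% of all genes, and in 16 of 20 probe sets, against 62.8%.

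With each array scaled on 7 reference genes in place of the deposited scale, 7 of 9 members were higher and 1 lower, where 62.3% of all genes were higher and 11.3% lower. Of the 20 probe sets, 14 were higher and 3 lower, where 61% and 8.73% of all probe sets were. That scaling adds 0.37 to every change and moved the median of all genes to 0.40, and under it Mdm2, Zmat3 and Phlda3 passed as higher. Most of its shift comes from Polr2a (-0.75) and Gusb (-1.42), as without this pair the mean change was -0.08 over 5 genes.

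**Figure D1:**
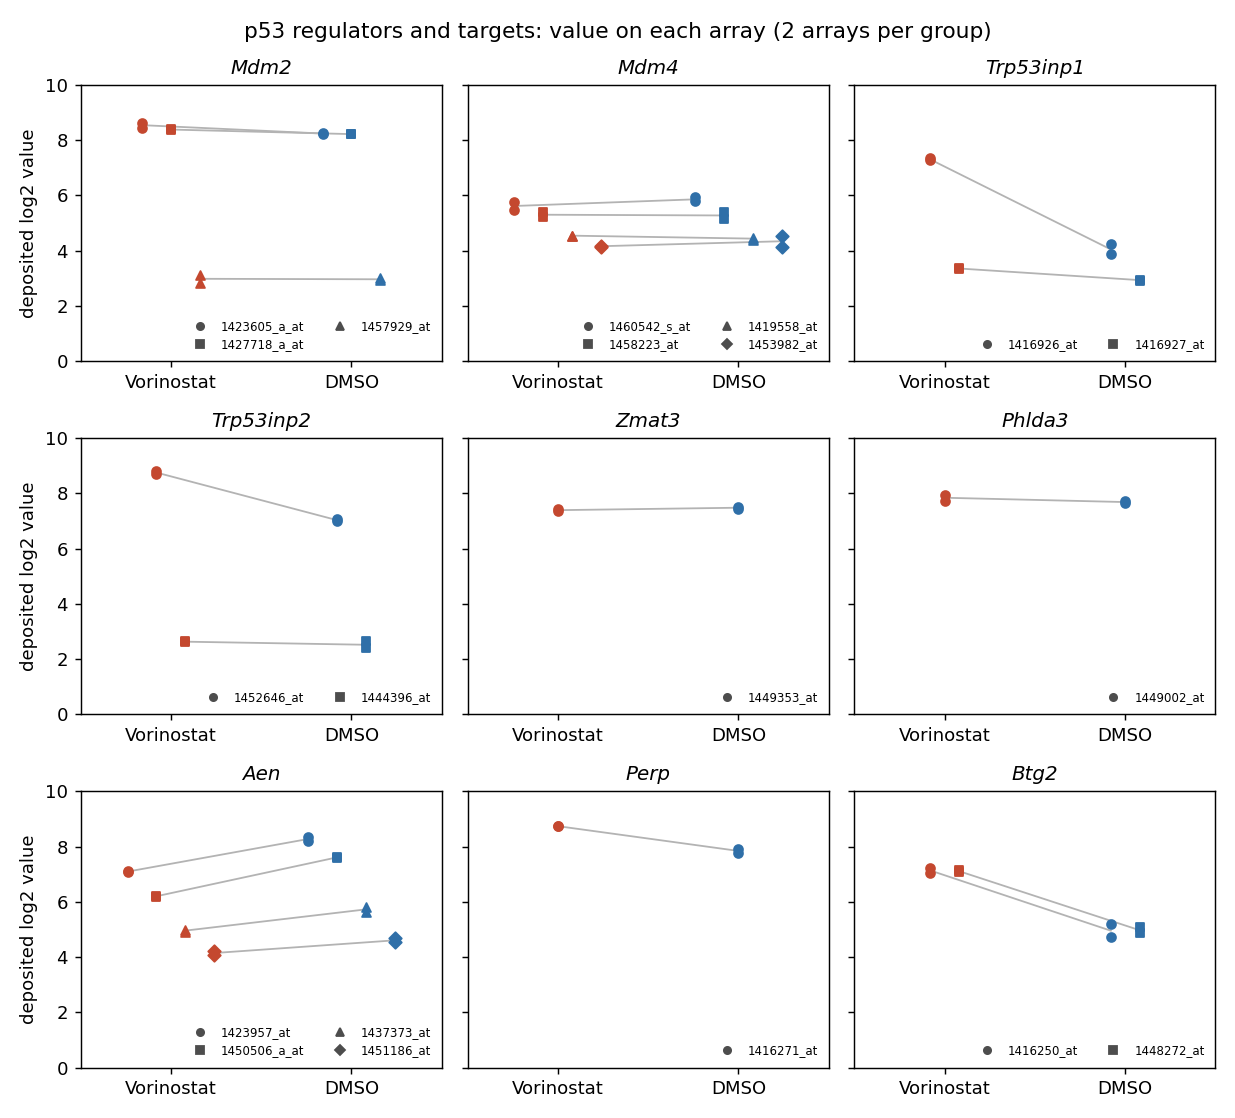
Deposited log2 value of each probe set of the 9 measured genes on the vorinostat arrays (red, left) and the DMSO arrays (blue, right), with 1 marker shape per probe set and grey lines joining the group means. The lines of Trp53inp1, Btg2 and Trp53inp2 at their highest-signal probe sets slope steeply towards higher vorinostat values, the 4 Aen lines slope the other way, and those of Mdm2, Mdm4, Zmat3 and Phlda3 are nearly level.

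Among the regulators, the ubiquitin ligase gene Mdm2 differed little between the groups. Its probe set 1423605_a_at read 8.63 and 8.46 on the vorinostat arrays, against 8.26 and 8.22 on the DMSO arrays. Both vorinostat arrays lay above both DMSO arrays, with a gap of 0.20. The change was 0.30 (SE 0.09), or 1.23-fold, and it did not pass (adjusted p = 0.0632 by limma). The 95% interval of the change, unadjusted for the number of probe sets, ran from 0.07 to 0.54, so that its upper end is 1.46-fold. With an intensity trend in the variance, or with dim probe sets left out, the same change passed in limma (adjusted p = 0.0141 and 0.0253), and over the omission of single arrays its adjusted p lay between 0.0825 and 0.241.

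A second Mdm2 probe set, 1427718_a_at, read 8.42 and 8.35 with vorinostat, against 8.22 and 8.22 with DMSO. Its groups did not overlap either, and its change of 0.17 (SE 0.08) did not pass in limma (adjusted p = 0.18). The third, 1457929_at, was near background on all 4 arrays. The p53 feedback gene Mdm2 thus had the same direction at both probe sets above background, with neither past the threshold.

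Mdm4, whose product restrains p53 by binding it, had 4 probe sets, of which 0 passed in limma and 0 had an unadjusted p under 0.05. At 1460542_s_at, a type of probe set that can match several transcripts, the values were 5.48 and 5.76 with vorinostat, against 5.93 and 5.79 with DMSO. The lower DMSO array and the higher vorinostat array were only 0.03 apart. The change was -0.24 (SE 0.12, adjusted p = 0.215 by limma), with a 95% interval from -0.56 to 0.07, and it turned to 0.13 under reference-gene scaling. The other Mdm4 probe sets had changes of 0.11, 0.03 and -0.18, and the arrays of the groups overlapped in 2 of these 3. Under reference-gene scaling 1419558_at (0.48) and 1458223_at (0.39) passed as higher, with adjusted p = 0.00667 and 0.0345 by limma. At 1419558_at the vorinostat arrays held the same deposited value, 4.55, so that the spread there is 0 for that group.

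Trp53inp1 changed most of all members. It encodes a stress-induced protein that p53 switches on, that promotes p53-dependent cell death and that also takes part in autophagy. Probe set 1416926_at read 7.27 and 7.34 on the vorinostat arrays, against 4.23 and 3.87 on the DMSO arrays, so that the groups were 3.03 apart at their nearest. The gene rose by 3.26 (SE 0.14, adjusted p = 2e-04 by limma), or 9.55-fold with a 95% interval from 7.49 to 12.2-fold. Only 42 of the 18193 genes, itself included, rose at least as far at their highest-signal probe set. The DMSO arrays lay just above the near-background limit, by 0.69 and 0.12.

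The other Trp53inp1 probe set, 1416927_at, was near background on all 4 arrays. It read 3.35 and 3.37 with vorinostat, against 2.92 and 2.96 with DMSO. This was a small change in the same direction, 0.42 (SE 0.08, adjusted p = 0.0112 by limma), and it did not pass when any 1 array was left out (adjusted p from 0.0581 to 0.0749). Both probe sets carry the same source accession in the annotation, so they were designed on 1 sequence record.

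Its relative Trp53inp2 encodes an autophagy scaffold that also acts as a coactivator of nuclear receptors. Trp53inp2 is counted here as a listed member, and whether p53 acts on it was not tested. Probe set 1452646_at read 8.79 and 8.71 on the vorinostat arrays, against 6.999 and 7.06 on the DMSO arrays. The arrays within each group were under 0.10 apart, while the groups were 1.65 apart. Trp53inp2 rose by 1.72 (SE 0.08, adjusted p = 0.000242 by limma), or 3.30-fold, and 302 genes rose at least as far. Its 95% interval, 1.51 to 1.93, lies below that of Trp53inp1, 2.91 to 3.61, but the difference between the relatives was not tested. A second Trp53inp2 probe set, 1444396_at, was near background on all 4 arrays, with a change of 0.11 that did not pass.

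**Figure D2:**
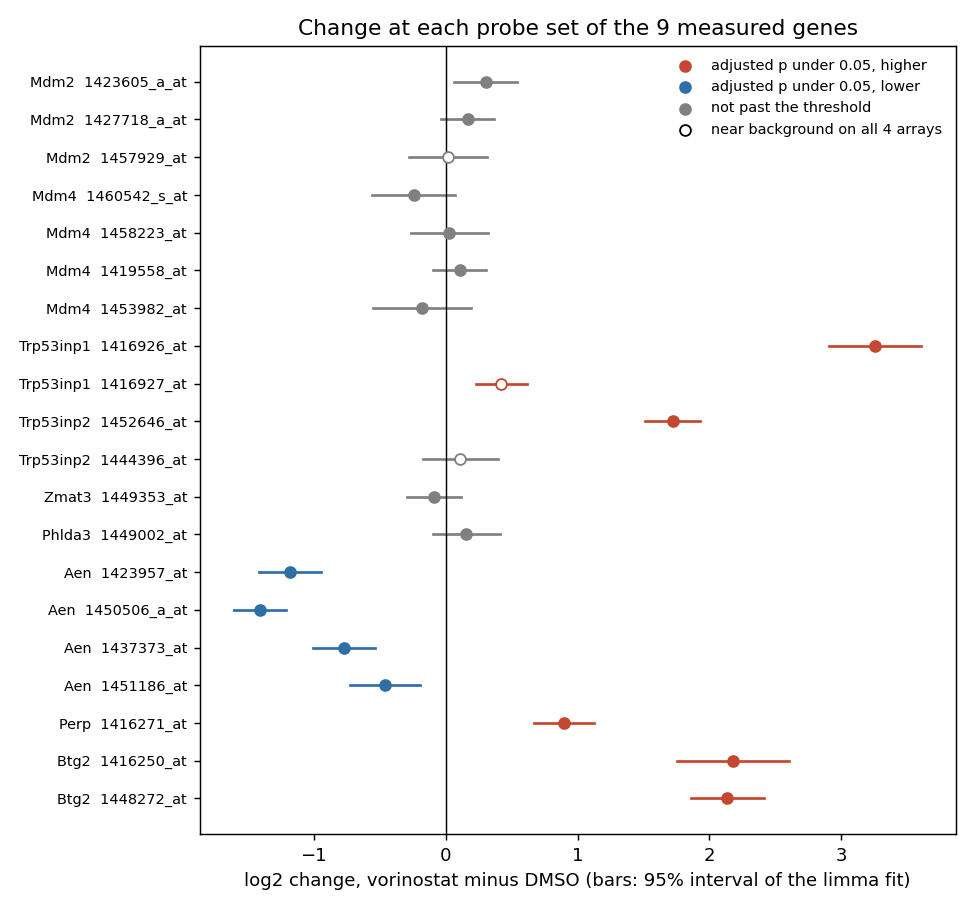
Log2 change, vorinostat minus DMSO, at each of the 20 probe sets, with 95% intervals from limma as bars, red for higher and blue for lower past the threshold, grey for not past it, and open circles for probe sets near background on all 4 arrays. The largest change is 3.26 at Trp53inp1, all 4 Aen probe sets lie below 0, and all Mdm2 and Mdm4 probe sets are grey.

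Of the direct targets, Btg2 had the next largest rise. It belongs to the BTG/TOB family of antiproliferative proteins, which recruit the deadenylase complex that shortens mRNA tails. At 1416250_at the values were 7.22 and 7.05 with vorinostat, against 4.73 and 5.18 with DMSO. At 1448272_at they were 7.06 and 7.16 with vorinostat, against 5.09 and 4.85 with DMSO. The order of the DMSO arrays was reversed between the 2 probe sets, while both vorinostat arrays were above both DMSO arrays at each. Btg2 rose by 2.18 (SE 0.17) and 2.14 (SE 0.11), with adjusted p = 0.000644 and 0.000265 by limma, or 4.53-fold and 4.40-fold. Only 155 genes rose at least as far as Btg2 at its highest-signal probe set.

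Perp encodes a membrane protein of desmosomes that p53 induces during cell death and that the relative p63 drives in stratified epithelia. Its 1 probe set read 8.75 and 8.73 on the vorinostat arrays, against 7.92 and 7.77 on the DMSO arrays. The vorinostat arrays were 0.02 apart and the DMSO arrays 0.15, with a gap of 0.81 between the groups. Perp rose by 0.90 (SE 0.09, adjusted p = 0.00137 by limma), or 1.86-fold. Of all genes, 6.91% had a change at least as high, against 1.66% for Trp53inp2.

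Aen was the member that fell. It encodes the apoptosis-enhancing nuclease, an exonuclease that p53 induces and that helps to cut DNA in dying cells. At 1423957_at it read 7.07 and 7.11 with vorinostat, against 8.36 and 8.19 with DMSO, and at 1450506_a_at it read 6.19 and 6.21 with vorinostat, against 7.64 and 7.58 with DMSO. All vorinostat arrays were below all DMSO arrays at each of its 4 probe sets. The changes there were -1.18 (SE 0.09) and -1.41 (SE 0.08), with adjusted p = 0.000686 and 0.000304 by limma, so Aen was 2.27-fold and 2.65-fold lower with vorinostat.

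The remaining Aen probe sets had lower signals and smaller changes. At 1437373_at the values were 4.92 and 4.99 with vorinostat, against 5.81 and 5.65 with DMSO, a change of -0.77 (SE 0.09, adjusted p = 0.00263 by limma). At 1451186_at they were 4.06 and 4.23 with vorinostat, against 4.68 and 4.53 with DMSO, a change of -0.46 (SE 0.10, adjusted p = 0.0234 by limma). The call of 1451186_at was lost when any 1 array was left out (adjusted p from 0.0656 to 0.14), and under reference-gene scaling (-0.09), while the other 3 held in each of these. Probe sets 1423957_at and 1451186_at share a source accession, yet their changes differ by more than the standard error of either.

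Zmat3 and Phlda3, both known as direct p53 targets, did not pass the threshold in either direction. Zmat3 encodes a zinc-finger protein that binds RNA and affects splicing. It read 7.42 and 7.36 on the vorinostat arrays, against 7.52 and 7.45 on the DMSO arrays. The change was -0.09 (SE 0.08, adjusted p = 0.481 by limma), with a 95% interval from -0.29 to 0.12, and it became 0.28 under reference-gene scaling. The groups were 0.02 apart, less than the arrays within either group.

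Phlda3 encodes a small lipid-binding protein that keeps the kinase AKT from the membrane. It read 7.74 and 7.94 on the vorinostat arrays, against 7.65 and 7.72 on the DMSO arrays. The vorinostat arrays were 0.20 apart, and the groups only 0.02. The change was 0.16 (SE 0.10, adjusted p = 0.313 by limma), with a 95% interval from -0.10 to 0.41, which allows a rise of up to 1.33-fold.

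The calls of Trp53inp1, Trp53inp2, Btg2, Perp and Aen at their highest-signal probe sets held in limma when each array was left out in turn. Their changes then ranged from 3.07 to 3.44, from 1.68 to 1.76, from 1.96 to 2.40, from 0.82 to 0.97 and from -1.26 to -1.10, in that order. Averaging all probe sets of a gene also gave 4 members higher and 1 lower, with the change of Trp53inp1 at 1.84 and that of Trp53inp2 at 0.92, since their near-background probe sets then count as much as the others.

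The members were set beside 57 other measured genes of the p53 pathway, out of 62 listed by role. Of these, 25 rose, 15 fell and 17 did not pass, against 20.9% of all genes higher and 18.9% lower, with a median change of 0.23. Leaving out any 1 array reduced the rises and the falls among these genes, and also those among all genes. Both sets of counts are given with the processing checks below. Under reference-gene scaling 36 of the 57 were higher and 6 lower, close to the shares of all genes at that scaling, 62.3% and 11.3%. Rpl5, Gdf15, Bax, Fdxr and Gls2 were not analysed here.

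Among 10 measured targets that act in cell cycle arrest and growth control, 7 rose and 1 fell, with a median of 0.68. With each array centred on its median 6 rose, and with the replicate number as a block 5 did. Under reference-gene scaling 9 rose, where 62.3% of all genes did. Fewer passed when any 1 array was left out, as among all genes, with medians from 0.62 to 0.71. The polo-like kinase gene Plk2 rose by 2.04 (SE 0.09) and Cdkn1a, which encodes the cyclin-dependent kinase inhibitor p21, by 1.69 (SE 0.16). Cdkn1a read 7.71 and 7.57 on the vorinostat arrays, against 5.74 and 6.16 on the DMSO arrays. Gtse1, whose product shuttles p53 out of the nucleus and is made in G2 and S phase, fell (-2.31, SE 0.09). The adjusted p by limma was 0.000222, 0.00109 and 0.000177 for Plk2, Cdkn1a and Gtse1.

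Of 10 measured targets that act in cell death, 6 rose and 0 fell, with a median of 0.42, and at an unadjusted p under 0.05 1 was lower (Pidd1, -0.27). The BH3-only gene Pmaip1, which encodes NOXA, rose by 2.73 (SE 0.08, adjusted p = 0.00016 by limma). Its values were 9.74 and 9.63 with vorinostat, against 6.98 and 6.94 with DMSO. The death receptor gene Fas rose by at least 1.35, or 2.55-fold, since its DMSO arrays were near background (adjusted p = 0.00074 by limma). Fewer of these genes rose when any 1 array was left out, as among all genes, with medians from 0.38 to 0.47. With each array centred on its median, 5 rose and 1 fell, and with the replicate number as a block 4 rose. Under reference-gene scaling 7 of the 10 rose, where 62.3% of all genes did.

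Of 11 measured targets in DNA repair, metabolism and autophagy, 7 rose and 2 fell, with a median of 0.54. Ddit4, a brake on the kinase complex mTORC1, rose by 1.33 (SE 0.09) and the autophagy modulator Dram1 by 1.24 (SE 0.09), with adjusted p = 0.000529 and 0.000505 by limma. The cytochrome oxidase assembly factor Sco2 fell (-1.35, SE 0.12, adjusted p = 0.000952 by limma). Steap3, a metalloreductase, also fell (-0.50, SE 0.08, adjusted p = 0.00781 by limma). This change did not pass without Vorinostat 1, Vorinostat 2 or DMSO 1 or under reference-gene scaling. Of 2 other Steap3 probe sets, 1430355_a_at fell (-0.82, adjusted p = 0.00363 by limma) and 1453498_x_at did not pass (-0.39). Fewer genes of the list passed when any 1 array was left out, as among all genes, with medians from 0.49 to 0.57. Under reference-gene scaling 9 of the 11 rose and 1 fell, where 62.3% of all genes rose.

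Of 13 kinases and cofactors that activate p53, 7 fell and 3 rose, with a median of -0.41. The checkpoint kinase gene Chek1 fell (-2.28, SE 0.10) and so did the acetyltransferase gene Crebbp (-1.05, SE 0.14), with adjusted p = 0.000225 and 0.00355 by limma. Crebbp did not pass without Vorinostat 1 (-0.96, adjusted p = 0.0551). The p53-binding proteins Ppp1r13b (1.08, SE 0.08) and Trp53bp1 (0.96, SE 0.08) rose, with adjusted p = 0.00055 and 0.000832 by limma. Of 5 other Trp53bp1 probe sets 1426957_at rose by 0.67, and the other 4 did not pass, with changes from -0.10 to 0.06, 2 of them near background on all arrays. Fewer of the 13 fell when any 1 array was left out, as among all genes, with medians from -0.49 to -0.30. Under reference-gene scaling 5 of the 13 were higher and 2 lower, where 62.3% of all genes were higher and 11.3% lower.

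Genes that set p53 stability or restrain it had 5 of 11 members lower and 2 higher, with a median of -0.19. Under reference-gene scaling the median was 0.18, with 5 higher and 2 lower, where 62.3% of all genes were higher and 11.3% lower. The deubiquitinase genes Usp10 (-0.72, SE 0.08) and Usp7 (-0.67, SE 0.08), whose products can remove ubiquitin from p53, fell. Cdkn2a, which encodes the MDM2 antagonist p19ARF as well as the kinase inhibitor p16INK4a, rose by 0.89 (SE 0.08). The phosphatase gene Ppm1d rose by 0.54 (SE 0.10), but this was lost without Vorinostat 1, DMSO 1 or DMSO 2, and its second probe set did not pass (0.24). Of 6 other Usp7 probe sets, 4 fell and 2 did not pass (-0.08 and 0.08). The adjusted p by limma was 0.0022, 0.00273, 0.000963 and 0.0133 for Usp10, Usp7, Cdkn2a and Ppm1d. Fewer genes of this list fell when any 1 array was left out, as among all genes, with medians from -0.21 to -0.16.

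Neither measured relative of p53 passed in limma at its highest-signal probe set, and 0 of 2 had an unadjusted p under 0.05. Trp73 read 4.32 and 4.29 on the vorinostat arrays, against 4.14 and 4.18 on the DMSO arrays, a change of 0.15 (SE 0.08, adjusted p = 0.223 by limma), which became 0.52 and passed under reference-gene scaling (adjusted p = 0.00445 by limma). Another Trp73 probe set, 1427697_a_at, rose by 0.49 (adjusted p = 0.0081 by limma). It averaged 4.10 with vorinostat, against 3.60 with DMSO. The near-background limits of the DMSO arrays were 3.54 and 3.75, so this rise starts close to background. Trp63, which also drives Perp in epithelia, had a change of 0.05 (SE 0.19, adjusted p = 0.869 by limma) with overlapping arrays.

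**Figure D3:**
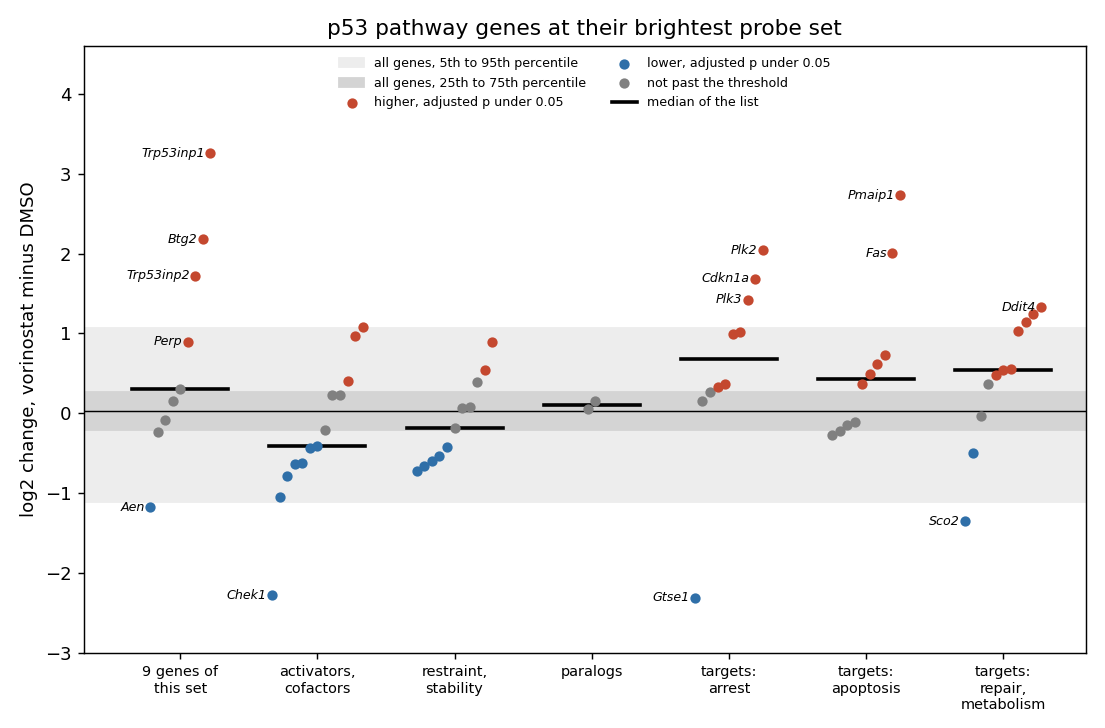
Log2 change, vorinostat minus DMSO, of each gene at its highest-signal probe set, for the 9 members and the 6 other p53 pathway lists, with list medians as black bars and the spread of all genes as grey bands. The 3 target lists have medians of 0.68, 0.42 and 0.54. The median of the activators is -0.41. That of the mixed list of genes that set p53 stability or restrain it is -0.19. The value drawn for Fas is as measured, and only its lower bound of 1.35 is supported.

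Markers of several cell types were read above background in both groups. The luminal keratins Krt8 and Krt18 averaged 11.26 and 11.42 with vorinostat, against 12.30 and 11.49 with DMSO, and of 7 epithelial markers 2 rose and 2 fell. Hoxb13, another luminal marker, averaged 8.78 with vorinostat, against 8.24 with DMSO, and rose (0.54, adjusted p = 0.00497 by limma). The luminal secretory gene Pbsn was near background on all arrays (2.12 with vorinostat, against 2.13 with DMSO). The basal markers Krt5, Krt14 and Trp63 averaged 4.65, 5.37 and 4.37 with vorinostat, against 4.56, 5.14 and 4.32 with DMSO. None of these 3 basal markers passed. The fibroblast collagens Col1a2 and Col3a1 averaged 12.47 and 10.27 with vorinostat, against 12.68 and 11.16 with DMSO, far above background. The pan-leukocyte marker Ptprc and the macrophage marker Adgre1 were near background on all arrays, while Cd3e was the 1 of 5 immune markers that rose (0.43). The immune markers Csf1r and Lyz2 averaged 4.95 and 3.63 with vorinostat, against 4.77 and 3.81 with DMSO. Neither counted as near background in either group, and neither passed. Of 7 fibroblast and endothelial markers, Pdgfra rose (1.54) and Col3a1 fell (-0.89), and Pecam1 was near background. The part of these markers in the changes of the p53 genes was not tested.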

How the data were processed

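RNA from 2 vorinostat and 2 DMSO samples was measured on Affymetrix mouse arrays. The deposited values are on a log2 scale, and per the submitters' processing notes the authors used the Transcriptome Analysis Console and RMA (versions not given). RMA equalises array distributions, which hides any change common to all transcripts. Array medians lay between 4.19 and 4.28. The sources used here do not name a genome build.

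From these values, 64 control probe sets were left out and 45037 tested with limma 3.58.1 in R 4.3.3 (lmFit and eBayes, two-sided, no filter). The platform annotation gave 1 symbol to 34945 of them, several to 932 and none here to 9160. For each gene, the probe set with the highest mean signal stood for it. Near background means within 1 of the highest of 3 probe sets for an unspiked control, on each array of a group. A changed gene near background in 1 group is given as a bound. The fit was tested on simulated data.

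The members, the other p53 lists, the near-background rule and the rule for named genes were chosen with earlier results of these data known. That rule named all members and, for each list, the 2 largest rises and falls past the threshold without overlap of arrays, or the smallest p where fewer than 2 passed. Alternatives were reference-gene scaling (Actb, Hprt, Tbp, Ywhaz, Sdha, Gusb and Polr2a), median centring, an intensity trend, a filter on dim probe sets, the mean of a gene's probe sets, a replicate block and the omission of each array.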

Additional observations from a re-analysis of the deposited data

How the results depend on the processing

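Of the 20 member probe sets, 18 kept direction and side of the threshold with arrays centred on their medians, 19 with an intensity trend in the variance, and 15 of the 16 that remained among probe sets above the median level. Scaling on the reference genes left 9 of the 20 so, while 7 came past the threshold, 1 no longer passed and 3 turned. It gave 14 member probe sets higher, against 6 on the deposited scale, and 7 members higher at their highest-signal probe set, against 4. Under it 6 of the other p53 pathway genes were lower, against 15. Over all probe sets it gave 27486 higher and 3930 lower, against 7440 and 7051, and over all genes 11340 and 2048, against 3806 and 3444. It turned the Mdm4 changes at 1460542_s_at and 1453982_at to 0.13 and 0.19 and that of Zmat3 to 0.28. Median centring turned Mdm2 1457929_at to -0.043 and Mdm4 1458223_at to -0.033. By construction each scaling adds 1 constant to every change.

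Over the omission of single arrays, the other p53 pathway genes higher ranged from 16 to 19 and those lower from 7 to 11. All probe sets higher ranged from 3778 to 4284 and lower from 3900 to 4575, and all genes higher from 2094 to 2381 and lower from 2046 to 2326. These fits rest on 3 arrays, and the lone array of a group is assumed to vary like the other group. Directions that turned belonged to probe sets that did not pass: Mdm2 1457929_at ranged from -0.12 to 0.16, Mdm4 1458223_at from -0.087 to 0.14, Mdm4 1453982_at from -0.38 to 0.024 and Trp53inp2 1444396_at from -0.019 to 0.24.

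With the replicate number as a block, 6 member probe sets were higher and 3 lower, the call of Aen 1451186_at being lost (adjusted p = 0.0756 by limma), and 3103 genes were higher and 2892 lower. Of the 57 other p53 pathway genes, 20 were then higher and 11 lower, against 25 and 15 without the block. The rises went from 7 to 5 among arrest targets and from 6 to 4 among cell death targets. They stayed at 7 among the targets in repair, metabolism and autophagy. Of the 13 kinases and cofactors that activate p53, 3 fell with the block, against 7 without it. The labels do not say that the numbers pair the samples, and the deviations of arrays with the same number had a correlation of -0.06. Signal limits the near-background probe sets, and 2 arrays per group limit the precision of every change.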
